A study of Mus musculus with 4 samples.

Results

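The genes described here build the class I antigen presentation pathway of the mouse: the heavy chains H2-K1 and H2-D1, the light chain B2m, the peptide transporter subunits Tap1 and Tap2, the bridging protein Tapbp, and the immunoproteasome subunits Psmb8 and Psmb9. They were taken by gene name from the non-control spots of 4 two-colour Agilent arrays. The 8 genes had 15 probes on 33 spots, and all 8 were among the 21361 genes tested. Each array carried RNA of treated ZHBTc4 cells in Cy5 and RNA of ZHBTc4 cells for which the labels name no treatment, the reference, in Cy3. ZHBTc4 cells are mouse embryonic stem cells that depend on an Oct4 (Pou5f1) transgene, and doxycycline stops its transcription. Their endogenous Pou5f1 copies are inactivated, so treated and reference cells share that deletion. The treated groups were doxycycline with TCP (dox+TCP, 2 arrays) and doxycycline alone (dox, 2 arrays, titled as the control in the labels), each for 48 h with 2 µg doxycycline. The labels do not spell out TCP; in studies of the histone demethylase LSD1, which this series is titled after, it commonly means tranylcypromine. Cells had been kept on irradiated fibroblast feeders and then on gelatin for 2 passages. Doxycycline and loss of Oct4 come together in both treated groups and cannot be told apart, and the cells are 1 line.

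MHC class I molecules show peptides from inside the cell to cytotoxic T cells. The proteasome, whose interferon-inducible form carries Psmb8 and Psmb9, cuts proteins into peptides. The Tap1 and Tap2 pair carries them into the endoplasmic reticulum, and tapasin (Tapbp) holds the transporter next to an empty heavy chain paired with B2m. Undifferentiated embryonic stem cells are known for low class I surface levels, and trophoblast, the lineage that cells losing Oct4 turn to, is known for unusual class I expression. The class I heavy chain, B2m and Tap1 promoters are known to be bound by NF-kappaB, interferon regulatory factors and a factor complex anchored by RFX, CREB and NF-Y.

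The promoters of the 4 genes that were called are shown because they carry those letters to different degrees. Each line gives 250 bases before the gene's start from RefSeq on GRCm38.p6, 5′ to 3′ on the gene's strand. Capitals mark matches, on either strand, to GGGATTCCC (NF-kappaB), AANNGAAA (interferon regulatory factor core), TGACG (cyclic AMP response core), CCAAT (the NF-Y box) and TATAAA (the TATA box).
H2-K1, chr17:34000348-34000597, minus strand: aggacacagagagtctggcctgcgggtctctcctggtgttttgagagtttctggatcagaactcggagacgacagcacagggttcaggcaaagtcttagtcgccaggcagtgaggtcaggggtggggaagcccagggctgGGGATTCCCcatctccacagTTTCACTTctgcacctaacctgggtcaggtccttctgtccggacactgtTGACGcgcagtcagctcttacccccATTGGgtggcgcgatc
H2-D1, chr17:35262844-35263093, plus strand: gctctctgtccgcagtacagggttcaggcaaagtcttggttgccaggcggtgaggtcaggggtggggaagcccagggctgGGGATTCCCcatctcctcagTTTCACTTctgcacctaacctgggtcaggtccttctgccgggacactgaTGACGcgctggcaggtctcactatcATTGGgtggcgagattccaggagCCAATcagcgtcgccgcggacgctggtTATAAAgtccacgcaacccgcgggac
B2m, chr2:122147437-122147686, plus strand: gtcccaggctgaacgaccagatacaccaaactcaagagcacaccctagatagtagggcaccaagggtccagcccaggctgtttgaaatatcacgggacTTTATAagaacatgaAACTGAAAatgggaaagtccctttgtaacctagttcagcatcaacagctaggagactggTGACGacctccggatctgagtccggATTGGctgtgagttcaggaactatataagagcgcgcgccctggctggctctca
Tap1, chr17:34187306-34187555, plus strand: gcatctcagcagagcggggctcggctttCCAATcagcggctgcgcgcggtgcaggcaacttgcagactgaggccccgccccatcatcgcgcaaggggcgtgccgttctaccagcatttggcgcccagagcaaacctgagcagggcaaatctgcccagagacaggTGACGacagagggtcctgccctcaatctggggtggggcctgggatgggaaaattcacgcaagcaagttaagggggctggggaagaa
The H2-K1 and H2-D1 promoters held the same NF-kappaB letters, followed in each by an interferon regulatory factor core, a cyclic AMP response core and a CCAAT box on the other strand. Over 100 bases from the NF-kappaB letters on, without gaps, 89 were identical between them. Of the 7 genes with a promoter in the table, these 2 held GGGATTCCC, against 0.301% of 32851 mouse promoter windows of that length. The 2 stretches are near copies of each other, so this share measures no enrichment. B2m held the interferon regulatory factor core, the cyclic AMP response core and a CCAAT box but no GGGATTCCC. Tap1 held the cyclic AMP response core and a CCAAT box. Other forms of the NF-kappaB letters were not searched for, such as the unmarked gggaaagtccc in the B2m line. The lack of GGGATTCCC is therefore not the lack of an NF-kappaB site. The interferon regulatory factor core was present for 3 of the 7 genes (21.3% of all windows) and the cyclic AMP response core for 5 (17.8%). The CCAAT box was present for 6 (33.8%) and the letters TATAAA for 3 (12.4%). TATAAA lay 26 bases before the start in H2-D1, but 152 before it in B2m and 237 in Psmb8. Position was not part of the search, so these 3 are not counted as working TATA boxes. The Tap1 and Psmb9 starts lie 225 bases apart and point away from each other, so the Tap1 line also covers that of Psmb9 on the opposite strand. The cyclic AMP response core and the CCAAT box of these 2 genes are the same letters, counted once for each gene. A match is a description of letters, not of binding. Tap2 had no entry. H2-K1 had 2 entries with different starts, and the line shown and the counts use the first. The other (chr17:34000334-34000583) held the same letters but 2 CCAAT boxes.

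The arrays were of like brightness. Of the non-control spots, 74.3 to 78.1% were well above background in Cy5 and 68.8 to 78.1% in Cy3, and 0 were saturated in either channel. The number of arrays limits the precision: the median SE over all genes was 0.114 for a group's log2 ratio and 0.161 for a difference between groups. Pou5f1, the shut-off gene, stood at −3.29 and −3.28 (log2 of Cy5 over Cy3) on the dox+TCP arrays and at −3.38 and −3.62 on the dox arrays. Replicate 1 of both groups shared a slide. The reference RNA was treated as 1 control sample, so its own spread is not estimated. Whether it was 1 RNA is not given in the labels. Dyes were not swapped, so a gene's dye bias stays in each ratio to the reference. Cy3 levels correlated at 0.999 between the replicate 1 arrays, which shared a slide, and at 0.981 to 0.989 between the other pairs. The cause of that gap was not tested. The reference channel was not alike on all arrays: 40.3% of the tested genes were brighter on both replicate 2 arrays than on both replicate 1 arrays and 24.4% were dimmer. Trophoblast markers stood apart most, with summed Cy3 levels of 236364 and 216948 on the replicate 2 arrays of dox+TCP and dox, against 36585 and 33145 on the replicate 1 arrays.

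Comparing dox+TCP cells, and dox cells, with the reference asks how the pathway differs once Oct4 is off. H2-K1, H2-D1, B2m and Tap1 were higher in dox+TCP cells than in the reference, by 1.63-fold to 3.66-fold, and H2-K1, H2-D1 and Tap1 were higher in dox cells, by 1.43-fold to 2.00-fold (limma, adjusted p at most 0.05). Tap2, Tapbp, Psmb8 and Psmb9 passed in neither comparison. So 4 of the 8 genes were called with dox+TCP, all higher, where 15.4% of all genes were called (7.32% higher and 8.08% lower). With dox, 3 of 8 were called, all higher, where 14.6% of all genes were called (6.32% higher and 8.26% lower). The median log2 ratio of the 8 was 0.62 with dox+TCP and 0.39 with dox, beside 0.033 and −0.00078 over all genes tested. In 4 of the 8 genes every one of the 4 ratios lay above 0, which held for 28.2% of all genes, and in 0 of the 8 every one lay below 0 (26% of all genes). Both comparisons use a reference of the same label.

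**Figure D1:**
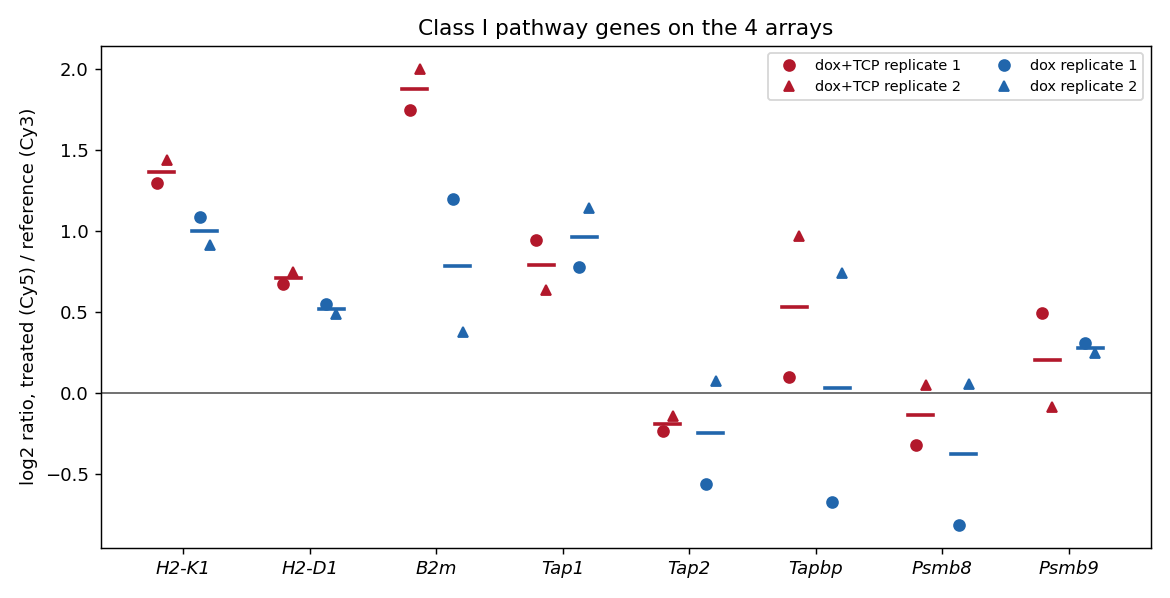
Log2 ratio of treated cells (Cy5) over the reference (Cy3) for each of the 8 genes on each array; circles are replicate 1, triangles replicate 2, and bars the group means (n = 2). H2-K1, H2-D1, B2m and Tap1 lie above 0 on all 4 arrays, and the dox+TCP points lie above the dox points for H2-K1, H2-D1 and B2m.

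H2-K1 encodes the K heavy chain, which binds the peptide. Its log2 ratio was 1.30 and 1.43 on dox+TCP arrays 1 and 2, against 1.08 and 0.91 on dox arrays 1 and 2. All 4 values were well above 0, and both dox+TCP values were above both dox values. The mean was 1.36 ± 0.093 with dox+TCP (SE, n = 2, 2.57-fold, limma adjusted p = 0.0168) and 1.00 ± 0.093 with dox (SE, n = 2, 2.00-fold, limma adjusted p = 0.0190). This probe (A_51_P198434, BC080756, chr17:32074445-32074504 in the files' mm7 coordinates) was spotted 10 times, which gives a direct view of the spot error. The spots used had SDs of 0.024 and 0.029 on the dox+TCP arrays and of 0.066 and 0.082 on the dox arrays, which covers the error of spots within an array and not that between samples. On dox+TCP array 1 the spots ran between 1.27 and 1.33, and on dox array 1 between 1.00 and 1.21, so the spots of these slide mates did not overlap. Of the 40 spots on the 4 arrays, 4 carried an outlier mark and were left out. The other 2 H2-K1 probes, both designed on the sequence AK153419, were also above 0 on every array but lower. A_52_P50496 read 0.90 and 0.97 with dox+TCP and 0.77 and 0.88 with dox, and passed in both (adjusted p over all probes 0.0198 and 0.0223). A_52_P474242 read 0.50 and 0.66 with dox+TCP and 0.25 and 0.46 with dox, and passed with dox+TCP (0.0451) and not with dox (0.111).

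H2-D1 encodes the D heavy chain. The brighter of its probes (A_51_P496996, NM_010380, chr17:33361850-33362082) read 0.67 and 0.74 on the dox+TCP arrays, against 0.54 and 0.49 on the dox arrays. The replicates lay 0.073 apart with dox+TCP and 0.058 apart with dox, and the groups did not overlap. Its mean was 0.71 ± 0.079 with dox+TCP (1.63-fold, limma adjusted p = 0.0226) and 0.52 ± 0.079 with dox (1.43-fold, limma adjusted p = 0.0345). The other probe (A_52_P246277, designed on X03051) did not move with it. It read 0.10 and −0.017 with dox+TCP and −0.030 and 0.26 with dox (adjusted p over all probes 0.829 and 0.560). The files place it at chr17:34358688-34358747, far from the first, and it was dimmer on all 4 arrays. With the mean of both probes the calls were lost, at 0.38 with dox+TCP (limma adjusted p = 0.0540) and 0.32 with dox (0.0773). Class I heavy chain genes are related in sequence, so a probe named for 1 of them may also bind transcripts of another. Probe sequences were not compared, and values for single heavy chains are uncertain for that reason.

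B2m encodes beta-2-microglobulin, the light chain that every classical class I molecule needs. It gave the highest ratio of the 8 in dox+TCP cells, at 1.75 and 2.00 on arrays 1 and 2, against 1.20 and 0.37 on the dox arrays (A_51_P129012, NM_009735, chr2:121893518-121893577). The dox replicates lay 0.83 apart and the dox+TCP replicates 0.25 apart, and the groups did not overlap. The mean was 1.87 ± 0.23 with dox+TCP (3.66-fold, limma adjusted p = 0.0257) and 0.78 ± 0.23 with dox, which was not called (limma adjusted p = 0.114). A neighbouring probe on 10 spots (A_51_P129006) gave nearly the same values, 1.63 and 1.96 with dox+TCP and 1.25 and 0.48 with dox. Its spot SDs were 0.054 and 0.071 on the dox+TCP arrays and 0.080 and 0.104 on the dox arrays, so the gap between the dox replicates was far wider than the spot error. The dimmest B2m probe (A_52_P105594, from AK086184) was well above background in the reference channel on 1 of 4 arrays. It read 0.82 and 0.64 with dox+TCP and 0.84 and 0.31 with dox, where the groups overlapped.

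**Figure D2:**
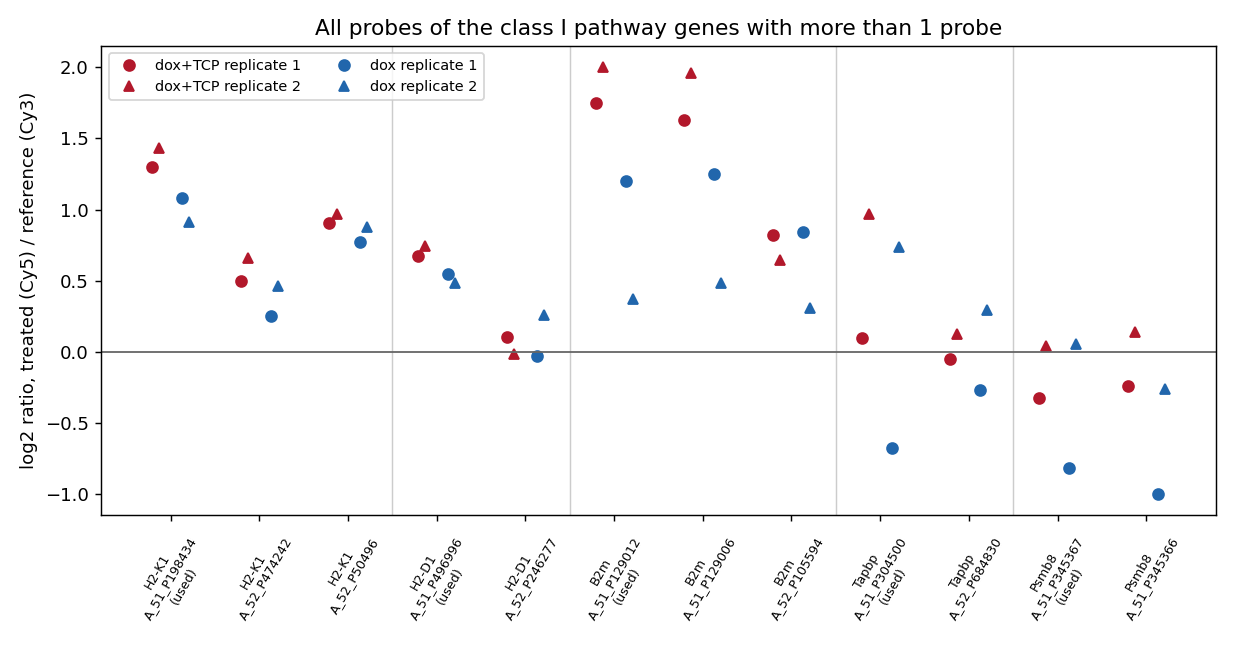
Log2 ratio of treated cells (Cy5) over the reference (Cy3) for every probe of the 5 genes with more than 1 probe, by array; the brightest probe, which stands for the gene, is marked as used. Both bright B2m probes separate dox+TCP from dox, the H2-K1 probes are all above 0, and the second H2-D1 probe lies near 0.

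Tap1, a subunit of the peptide transporter, was higher in both treated groups. Its log2 ratio was 0.94 and 0.63 on the dox+TCP arrays, against 0.78 and 1.14 on the dox arrays (A_51_P100327, NM_013683, chr17:32273751-32273810), and the groups overlapped. The mean was 0.79 ± 0.14 with dox+TCP (1.72-fold, limma adjusted p = 0.0458) and 0.96 ± 0.14 with dox (1.94-fold, limma adjusted p = 0.0340). Its partner Tap2 did not follow. Tap2 read −0.24 and −0.15 with dox+TCP and −0.57 and 0.071 with dox (A_52_P86176, NM_011530, chr17:32294682-32295269), with limma adjusted p of 0.530 and 0.439. In the files' coordinates the Psmb8 probes lie between those of Tap1 and Tap2. Psmb9, which shares the interval of the Tap1 promoter, read 0.49 and −0.091 with dox+TCP and 0.30 and 0.24 with dox and was not called (limma adjusted p = 0.483 and 0.360; A_51_P369803, NM_013585, chr17:32262147-32262206).

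Tapasin had replicates that disagreed with each other in both groups. Tapbp read 0.096 and 0.97 on dox+TCP arrays 1 and 2, against −0.68 and 0.74 on dox arrays 1 and 2 (A_51_P304500, NM_001025313, chr17:32007107-32007166). The replicate 2 arrays were high and the replicate 1 arrays low whatever the treatment. The 95% interval of the mean ran from −0.70 to 1.76 with dox+TCP and from −1.20 to 1.26 with dox (limma adjusted p = 0.470 and 0.973), so a change of 2-fold in either direction with dox lay within it. The dimmer probe (A_52_P684830, NM_009318) showed the same order on a smaller scale, −0.052 and 0.13 with dox+TCP and −0.27 and 0.29 with dox. Psmb8, a catalytic subunit of the immunoproteasome, had a like order at lower ratios. Its Cy5 signals were 134 to 197, dim as for Tap2. It read −0.32 and 0.044 with dox+TCP and −0.82 and 0.053 with dox (limma adjusted p = 0.746 and 0.395; A_51_P345367, NM_010724, chr17:32280668-32280727). Its other probe (A_51_P345366) read −0.24 and 0.14 with dox+TCP and −0.998 and −0.26 with dox, and on dox+TCP array 2 it was not well above background in the reference.

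The channels taken apart describe the replicate gaps of these ratios after normalization. The normalization splits its dye correction evenly between the channels, so the levels cannot show in which channel a gap arose. Levels here are normalized log2 intensities of 1 probe, compared between arrays and never between genes. H2-K1 stood at 12.45 and 13.35 in dox+TCP cells and at 12.19 and 12.78 in dox cells, against 11.15 and 11.91 in the reference on the dox+TCP arrays and 11.11 and 11.87 on the dox arrays. The reference of replicate 2 was brighter by 0.76 on average and the treated cells of replicate 2 by 0.74, and both gaps nearly cancel in the ratio. H2-D1 behaved alike, at 10.51 and 12.03 in dox+TCP cells and 10.37 and 11.21 in dox cells, against 9.83 and 11.29 and then 9.82 and 10.72 in the reference of the same arrays. B2m differed from both heavy chains: it stood at 12.27 and 12.39 in dox+TCP cells and at 11.71 and 11.43 in dox cells, against 10.53 and 10.39 and then 10.51 and 11.06 in the reference. The reference of dox array 2 was thus the brightest for B2m of the 4, and the treated cells on that array were the dimmest. For Tapbp the treated cells of replicate 2 were brighter by 0.66 on average and the reference was dimmer by 0.48, so both channels widen the gap. For Psmb8 the reference of replicate 2 was dimmer by 0.70 and the treated cells by 0.078. In all, 3 of the 8 genes were brighter on both replicate 2 arrays than on both replicate 1 arrays in the reference channel (40.3% of all genes), and 3 were dimmer (24.4%).

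**Figure D3:**
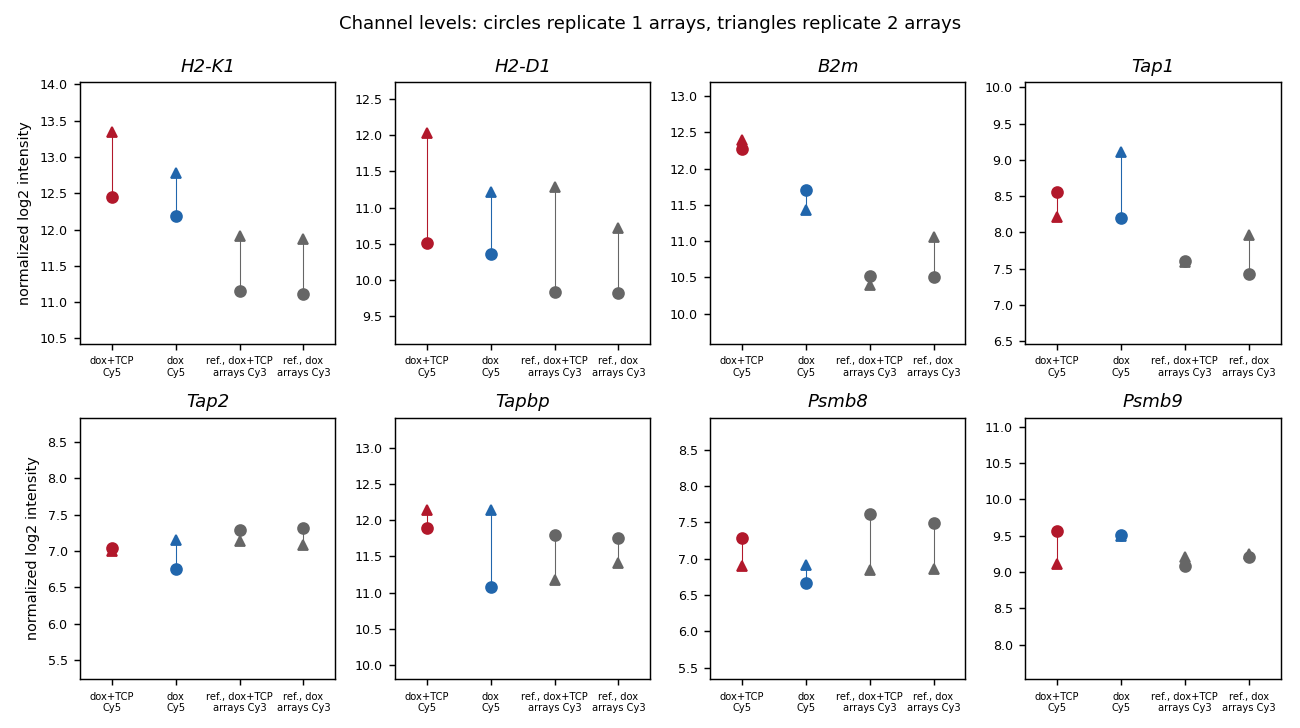
Normalized log2 intensity of each gene in the treated channel (Cy5, dox+TCP and dox) and in the reference channel (Cy3) of the same arrays; circles are replicate 1 and triangles replicate 2, and every panel spans a range of the same width. H2-K1 and H2-D1 are brighter in replicate 2 in both channels, while B2m separates the groups in Cy5, with its brightest reference on dox array 2.

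Comparing dox+TCP with dox asks what TCP adds when Oct4 is off in both. The ratios of H2-K1, H2-D1 and B2m were higher on both dox+TCP arrays than on both dox arrays, 3 of 8 genes where 20.2% of all genes did so, and 0 of 8 were lower on both (12.9% of all genes). No gene of the 21361 was called in this comparison (0% called by limma, with 935 genes or 4.38% at an unadjusted p under 0.05). B2m was the 1 gene of the 8 below that unadjusted threshold. Its dox+TCP mean exceeded the dox mean by 1.09 ± 0.33 on the log2 scale (95% interval 0.15 to 2.03, 2.13-fold, limma adjusted p = 0.996). That difference was 1.502 without dox replicate 1 and 0.68 without dox replicate 2. It was 0.72 with the mean of its 3 probes, where 0 of the 8 genes were below the unadjusted threshold, as without either dox+TCP array. For H2-K1 the difference was 0.37 (interval −0.0083 to 0.74) and for H2-D1 0.19 (interval −0.12 to 0.51). The difference was −0.17 for Tap1, 0.055 for Tap2, 0.50 for Tapbp, 0.24 for Psmb8 and −0.075 for Psmb9, each with an interval that includes 0. On the shared slide, dox+TCP replicate 1 exceeded dox replicate 1 in all 8 genes, as in 55.6% of all genes tested, by 0.55 for B2m, 0.21 for H2-K1, 0.13 for H2-D1 and 0.17 to 0.77 for the others. Between the replicate 2 arrays, which lay on separate slides and were scanned on different days, the gap was 1.63 for B2m, 0.52 for H2-K1 and 0.26 for H2-D1, while Tap1, Tap2, Psmb8 and Psmb9 were lower with dox+TCP. In Cy5 alone, the dox+TCP mean of B2m exceeded the dox mean by 0.76, and the reference of the dox+TCP arrays was lower by 0.33 than that of the dox arrays, so both channels add to the 1.09.

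The other class I and class I-like heavy chains were in part higher, as H2-K1 and H2-D1 were. Probes of related heavy chains may bind transcripts of each other, so these values need not be separate. Of 27 listed, 17 were tested, and 5 were called higher and 1 lower with dox+TCP, and 2 higher and 1 lower with dox. Over all genes, 7.32% were called higher and 8.08% lower with dox+TCP, and 6.32% and 8.26% with dox. H2-Q1, a nonclassical heavy chain gene, read 0.88 and 1.05 with dox+TCP and 0.75 and 0.73 with dox (limma adjusted p = 0.0185 and 0.0239). H2-Q7, which encodes the nonclassical Qa-2 antigen, read 0.62 and 0.79 with dox+TCP and 0.54 and 0.53 with dox (limma adjusted p = 0.0253 and 0.0381). H2-T23, the gene of Qa-1, which presents leader peptides of other class I chains, was called with dox+TCP at a mean of 0.75 (limma adjusted p = 0.0265) and stood at 0.48 with dox (0.0563). H2-Q10 and H2-Q2 were also called with dox+TCP, at means of 0.50 and 0.65, and stood at 0.45 and 0.34 with dox. The reference of replicate 2 was brighter than that of replicate 1 for all of these, by 0.76 to 1.08, as it was for H2-K1 and H2-D1. Cd1d1, whose product presents lipids to natural killer T cells, went the other way, at −1.95 and −1.97 with dox+TCP and −1.97 and −2.13 with dox (limma adjusted p = 0.0159 and 0.0118). The median of the list was 0.24 with dox+TCP and 0.0086 with dox.

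Other genes act on peptides beside these. Of 10 peptide-loading chaperones and enzymes, 0 were called in either comparison, with medians of 0.019 with dox+TCP and −0.24 with dox. They include calnexin, calreticulin and Pdia3, which fold and load class I chains. Of the 7 further proteasome genes tested, 0 were called with dox+TCP, and with dox 2 were lower and 0 higher. Over both lists that is 0 and 2 of 17 genes, where 15.4% of all genes were called with dox+TCP and 14.6% with dox. The 2 were the constitutive catalytic subunits Psmb5, which Psmb8 replaces in the immunoproteasome (−0.29 with dox+TCP, limma adjusted p = 0.0903, and −0.53 with dox, 0.0321), and Psmb7, which Psmb10 replaces (−0.36, 0.0720, and −0.51, 0.0403). Psmb6, which Psmb9 replaces, stood at −0.36 with dox+TCP and −0.25 with dox and was not called. Psmb10, the third inducible catalytic subunit, stood at −0.32 with dox+TCP and −0.79 with dox (limma adjusted p = 0.324 and 0.0718), and the activator subunit Psme1 at 0.53 and 0.35 (0.0885 and 0.186). Psme2 was not analysed here.

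Among regulators of class I genes, 12 of 14 were tested, and 1 was called higher and 3 lower with dox+TCP, 1 higher and 2 lower with dox. The shares over all genes were 7.32% higher and 8.08% lower with dox+TCP, and 6.32% and 8.26% with dox. The NF-kappaB subunit genes Nfkb1 and Rela were lower in both, Nfkb1 at −1.18 with dox+TCP and −1.03 with dox (limma adjusted p = 0.0229 and 0.0277) and Rela at −0.66 and −0.64 (0.0267 and 0.0291). Irf2, an interferon regulatory factor, was higher at 0.64 and 0.78 (0.0251 and 0.0202), and was well above background in the reference on 1 of 4 arrays, so the size of its ratio is uncertain. Nfyc, a subunit of the CCAAT-binding factor NF-Y, was lower with dox+TCP at −0.78 (limma adjusted p = 0.0484) and stood at −0.16 with dox. Irf1, an activator of class I and Tap1 transcription, stood at −0.88 with dox+TCP and −1.16 with dox (limma adjusted p = 0.0924 and 0.0575). Rfx5 did not pass the filter on dim probes, and Nlrc5 was not analysed here.

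All 13 listed interferon receptor and signalling genes were tested, and 2 were called higher and 0 lower in each comparison, a share close to that of all genes called (15.4% with dox+TCP and 14.6% with dox). Ifnar2, a chain of the type I interferon receptor, read 1.52 and 1.92 with dox+TCP and 1.15 and 1.51 with dox (limma adjusted p = 0.0187 and 0.0243). Stat2, which carries the type I signal to the nucleus, was called with dox+TCP at a mean of 1.38 (limma adjusted p = 0.0453) and stood at 0.85 with dox (0.112). Ifngr2, a chain of the interferon gamma receptor, was called with dox at 0.76 (limma adjusted p = 0.0482) and stood at 0.53 with dox+TCP (0.0929). Ifngr1, the other chain of that receptor, stood at −0.31 with dox+TCP and −0.11 with dox and was not called. Of 28 interferon-induced genes outside antigen presentation, 24 were tested, and more were lower than higher: 5 lower and 2 higher with dox+TCP, 7 lower and 1 higher with dox. Beside these stand 8.08% lower and 7.32% higher of all genes with dox+TCP, and 8.26% and 6.32% with dox. The RNA sensor gene Ddx58 was lower, at −2.67 with dox+TCP and −2.37 with dox (limma adjusted p = 0.0169 and 0.0164). Oasl2, of the oligoadenylate synthetase family, was higher at 1.30 and 0.74 (0.0165 and 0.0237). The other listed genes of that family went the other way. Oas2 stood at −1.53 with dox+TCP and −2.30 with dox (limma adjusted p = 0.0250 and 0.0166). Oas1a stood at −0.55 and −0.78 (0.0694 and 0.0384). Ifit1, Ifit2, Ifit3 and Ifi44 were well above background on 0 of the 4 arrays in either channel.

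**Figure D4:**
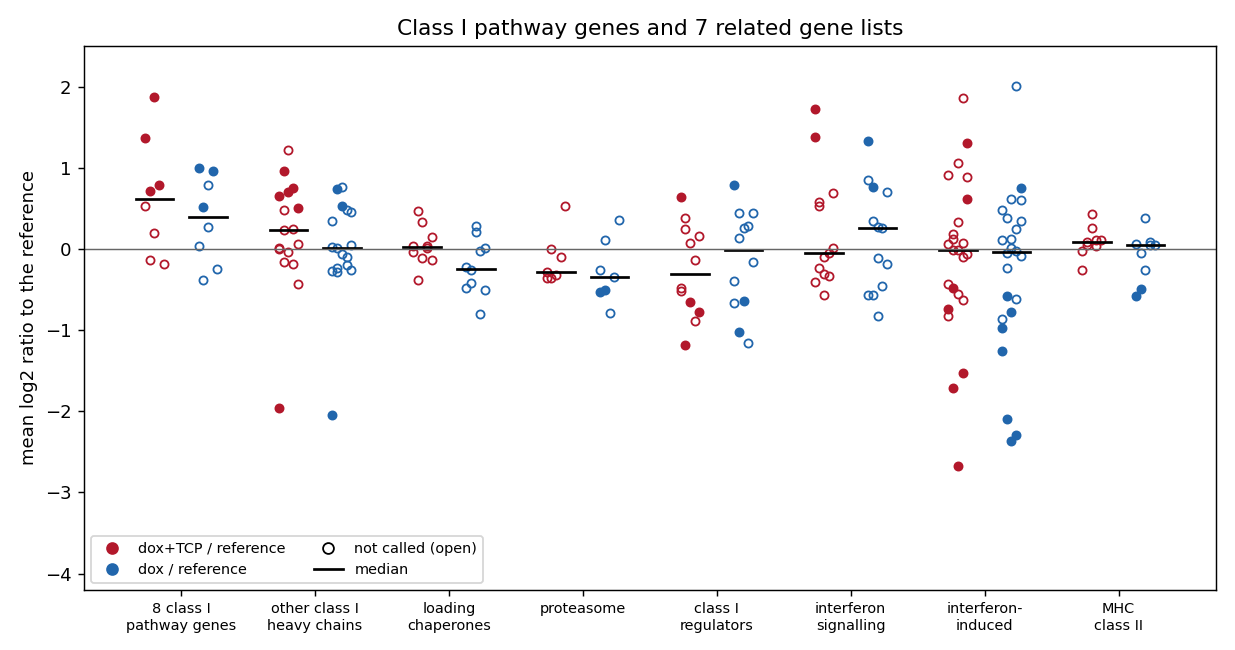
Mean log2 ratio to the reference (n = 2 arrays a group) of the 8 class I pathway genes and of the tested genes of 7 related lists, dox+TCP left and dox right in each; filled points were called by limma and bars are medians. The medians of 0.62 and 0.39 of the 8 genes lie above those of the 7 lists, and called genes go both ways among heavy chains, regulators and interferon-induced genes.

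Markers of other cells moved beside these values, in part. Their counts below stand beside 7.32% higher and 8.08% lower of all genes with dox+TCP, and 6.32% and 8.26% with dox. RNA was bulk, so fewer cells of a type and less RNA per cell cannot be told apart. Of 19 fibroblast markers, 1 was called higher and 1 lower with dox+TCP and 0 higher and 3 lower with dox. Their summed level was 49456 and 60030 in dox+TCP cells and 32870 and 42911 in dox cells, against 55939 and 61479 and then 56514 and 43977 in the reference of the same arrays. So on each array the sum was lower in the treated cells than in the reference. It was higher in dox+TCP than in dox cells of the same replicate number. The brightest genes, Sparc, Acta2 and Vim, weigh most in it. In Cy5 of replicate 2, Col1a1 (8.23 against 8.56) and Col1a2 (8.69 against 8.96) were instead lower with dox+TCP than with dox. In replicate 1 both were higher with dox+TCP. The collagen gene Col1a1 read 0.12 and 0.0034 with dox+TCP and −1.02 and 0.14 with dox. Of 12 trophoblast markers 0 were called in either comparison, with medians of 0.87 with dox+TCP and 1.39 with dox. Their summed level was 314253 and 355448 in dox+TCP cells and 471611 and 387378 in dox cells. In the reference of the same arrays it was 36585 and 236364 and then 33145 and 216948. Krt8, a trophoblast keratin, read 2.91 and 0.21 with dox+TCP and 3.94 and 0.56 with dox, low on both replicate 2 arrays, where its reference was brighter by 3.05. Of 9 leukocyte markers tested 0 were called, with summed levels of 2920 and 3788 in dox+TCP cells and 2344 and 3388 in dox cells, against 3844 and 3371 and then 3896 and 3288 in the reference. Ptprc, the defining leukocyte gene, was well above background on 1 of 4 arrays in each channel. Of the 10 embryonic stem cell markers 6 were lower with dox+TCP and 10 with dox, with medians of −2.16 and −2.47. The part of these cells in the class I values was not tested.

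The calls rest on few arrays. With local backgrounds exactly as read, 0 genes were called in either comparison with the reference. H2-K1 then stood at 1.31 with dox+TCP and 0.62 with dox, H2-D1 at 0.63 and 0.27, B2m at 1.49 and 0.33, and Tap1 at 0.15 and 0.56. Without either dox+TCP array 0 genes were called in either comparison, and from the dox arrays alone 0 were called with dox. Without dox replicate 2, B2m was called with dox at 1.20 (limma adjusted p = 0.0418) and the dox values of Tap1 and H2-D1 were not (0.0733 and 0.0776); without dox replicate 1, H2-D1 was not called (0.0762). When arrays were centred on their median without loess, the median over all genes was 0.18 with dox+TCP and 0.18 with dox, beside 0.033 and −0.00078 with loess. limma then called 5 of the 8 genes higher with dox, B2m (1.32) and Psmb9 (0.72) added, with 78.4% of all calls higher for dox+TCP and 81.2% for dox.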

How the data were processed

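RNA of 4 samples was measured on 4 two-colour Agilent arrays, with the treated cells in Cy5 and the reference in Cy3 per the labels. The scanner files give linear intensities of each spot and its surroundings, from Agilent Feature Extraction 10.1.1.1 with mm7 annotation, per the file headers. They also give log10 ratios that the software had corrected for background and dye, per the file headers, and the authors' deposited matrix holds log10 values that match them within 0.005, with column medians of 0, 0.0111, 0 and 0.

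From the intensities, limma 3.58.1 (R 4.3.3) gave normexp-corrected (offset 50) and loess-normalized log2 ratios. A local background more than 2 times as high as the median of its array was set to that median (11 to 112 spots a channel and array), control spots had weight 0, and 119 to 176 outlier-marked spots an array were left out. Channel levels are after Aquantile. Probes were kept if well above background in Cy5 on both arrays of either group, or in Cy3 on all 4. The brightest tested probe stands for a gene, and 41 genes with a missing value were left out, leaving 21361. Group means over all 4 arrays (2 residual and 1.79 prior degrees of freedom) were tested with eBayes and Benjamini-Hochberg adjustment over all genes at 0.05; "called" means below it. The procedure was tested on simulated data.

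The 8 genes and the lists were chosen with earlier results of these data known. Named are all members, up to 4 genes of a list by adjusted p, fixed regulators and subunits, and the 3 genes nearest to B2m, H2-K1 and Psmb8; a few of these are not reported here. Replicates are biological per the labels. The files' build is mm7; exon and UTR positions of probes were not assigned, and promoters on GRCm38.p6 are from RefSeq. Symbols were updated by accession, symbol or synonym for 22951, 6659 and 3109 probes, and 8455 kept the files' name. Alternatives were other background corrections and offsets, median centring, the scanner's and the matrix's ratios, other filters, other probe summaries, blocks for replicate number and scan day, and leaving out arrays.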

Additional observations from a re-analysis of the deposited data

How the results depend on the processing

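Under 17 alternative settings, all 136 values of H2-K1, H2-D1, B2m and Tap1 against the reference stayed above 0. These are not as many separate checks: for dox, scan day as a block, the arrays of the comparison alone and leaving out either dox+TCP array give the same values, and some filter and probe settings leave a gene's value as it was. Of 400 values of single genes, 343 kept direction and side of the threshold, 38 lost the call, 3 gained it and 16 changed sign, all 16 among values not called. Over these settings the limma adjusted p ran from 0.00794 to 0.260 for H2-K1, 0.00970 to 0.402 for H2-D1, 0.00855 to 0.264 for B2m and 0.0231 to 1.00 for Tap1 with dox+TCP, and from 0.00630, 0.00802, 0.0146 and 0.0125 to 0.508 with dox. No setting called a gene between dox+TCP and dox (0 by limma in each, with 214 to 2822 genes at an unadjusted p under 0.05). For dox+TCP and dox against the reference, 0 genes and 0 members were called with backgrounds as read (1967 and 1894 at an unadjusted p under 0.05) and with scan day as a block (3597 and 5132), which takes out dox+TCP replicate 2, the 1 array scanned on another day, and so equals leaving it out; median centring called 5100 and 6006 genes, 4 and 5 of them members, and the replicate block 5147 and 4882 with 4 and 3 members. Deviations of same-numbered arrays correlated at 0.472 over genes, from 2 pairs. The main fit did not take the numbers as pairs, so differences between replicate numbers that both groups share stay in its spread. The replicate block, given above, takes them out. Slide as a random block could not be fitted. From the arrays of the comparison alone, 5921 genes were called with dox+TCP, 4 of them members, and 0 genes and 0 members with dox (5132 unadjusted). Leaving out 1 array gave 0 to 5921 genes and 0 to 4 members with dox+TCP, and 0 to 4098 genes and 0 to 2 members with dox, with 2055 genes without dox replicate 2; the counts of 0 are those without either dox+TCP array, with 3348 to 5132 genes at an unadjusted p under 0.05. With the scanner's own ratios H2-D1 lost its dox call (0.59, adjusted p = 0.0600).

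Sign changes were these. With backgrounds as read, Tap2 stood at 0.029 and Psmb8 at 0.018 with dox, and dox+TCP minus dox at −0.046 for Tap2, −0.042 for Psmb8 and 0.070 for Psmb9; with scan day as a block that of Psmb9 was 0.22. Leaving out 1 array put Psmb8 between −0.32 and 0.044 and Psmb9 between −0.091 and 0.49 with dox+TCP, and Tap2 between −0.57 and 0.071, Tapbp between −0.68 and 0.74 and Psmb8 between −0.82 and 0.053 with dox. The difference between the groups then ran from −0.36 to 0.010 for Tap1, −0.26 to 0.37 for Tap2 and −0.21 to 1.21 for Tapbp. It ran from −0.19 to 0.68 for Psmb8 and −0.36 to 0.22 for Psmb9. For B2m the difference kept its sign, at 0.68 to 1.502. With fewer arrays the spread rests on the arrays left; the cause was not tested otherwise.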

Other observations

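MHC class II presentation, which serves peptides from outside the cell to helper T cells, was covered by 10 listed genes, of which 9 were tested. With dox+TCP 0 were called, where 15.4% of all genes were, and with dox 0 were higher and 2 lower, where 6.32% and 8.26% of all genes were. H2-Eb1, a class II beta chain, read −0.16 and −0.36 with dox+TCP and −0.58 and −0.57 with dox (limma adjusted p = 0.145 and 0.0357). H2-DMb1, a chain of the peptide exchange factor, read 0.069 and 0.093 with dox+TCP and −0.59 and −0.41 with dox (limma adjusted p = 0.588 and 0.0443). Cd74, the invariant chain, had replicates on opposite sides of 0 in both groups, at −0.60 and 1.12 with dox+TCP and −0.83 and 0.32 with dox.

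By Euclidean distance over the 4 log2 ratios, the tested genes nearest to H2-K1 were Sdc4 (0.0851), Csnk1a1 (0.155) and Tpcn1 (0.167). Those nearest to B2m lay farther away, Ssx9 at 0.444, Gpr137b at 0.563 and Rprd1a at 0.655. Bcat2 (0.131) and Crip1 (0.136) were among the 3 nearest to Psmb8. The distances describe 4 arrays whose references carry the same label.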
